A study of Homo sapiens with 12 samples.

Results

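Knock-down of ETV6 alone was compared with a control siRNA in U251 cells, a long-established line from a human glioblastoma. The comparison used 6 of the 12 arrays of the series: 3 arrays of cells transfected with ETV6 siRNA and 3 arrays of cells transfected with a control siRNA that targets no known human transcript. The remaining arrays, 3 with NFKB1 siRNA and 3 with both siRNAs (called double siRNA here), entered only where stated. All groups received ON-TARGETplus SMARTpool siRNA, each siRNA at 50 nM, with DharmaFECT 2, and the knock-down is transient. Small interfering RNA (siRNA) directs the cell to degrade transcripts that match it. RNA was measured on Affymetrix expression arrays, where a probe set is the group of probes that reports on a transcript, and every level below is a log2 probe set level. Of the genes named by the probe sets 10346 could be represented by 1 probe set each, the brightest over the 12 arrays, and 7760 passed a filter on low levels and were tested. Whether the 3 arrays of each group are independent cultures is not said in the labels; the p-values therefore reflect only how far these samples scatter, and that scatter may be technical.

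ETV6, also known as TEL, is a member of the ETS family, whose proteins bind DNA sites built around the core GGAA. Unlike many ETS proteins it acts mainly as a repressor: its pointed domain polymerizes, and it recruits co-repressors and histone deacetylases. It is best known from blood cells, where it is needed for blood formation in the adult marrow and is broken and fused to other genes in leukaemia.

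The 6 arrays had medians of 8.26, 8.27 and 8.18 with ETV6 siRNA and of 8.24, 8.22 and 8.27 with control siRNA. Control replicate 3 stood apart. Its root mean square distance from the mean of the other control arrays, over all tested genes, was 0.275, against 0.118 to 0.131 for the ETV6 siRNA arrays and 0.191 and 0.147 for the other control arrays. The distance was 0.075 to 0.081 for the double siRNA arrays, so an estimate of the spread pooled over all 12 arrays is smaller than the spread among the controls. All 9 listed markers of glioma cells passed the filter and spanned 7.91 to 14.52 on the 6 arrays. VIM was the highest, between 14.45 and 14.52, while S100B lay at 8.36 to 8.59 and CHI3L1 at 7.91 to 9.07. By mean over the 12 arrays S100B and CHI3L1 ranked at percentiles 48.3 and 39.0 of all genes. Of 21 markers of epithelial, immune, endothelial, neuronal and oligodendrocyte cells 4 had a probe set, all of them neuronal or oligodendrocyte. They lay at 5.92 to 7.40, and 0 passed the filter. Epithelial, immune and endothelial cells were thus not checked. The summed level of the 4 markers was 8.86 to 8.99 with ETV6 siRNA and 8.54 to 8.79 with control siRNA, and their part in the results was not tested.

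ETV6 itself was lower in every array treated with its siRNA. On the brighter probe set the levels were 6.80, 6.78 and 6.60 with ETV6 siRNA and 9.02, 9.02 and 8.58 with control siRNA. On the dimmer probe set they were 5.29, 5.15 and 5.03 with ETV6 siRNA and 7.52, 7.59 and 7.36 with control siRNA. The groups did not overlap on either probe set. The brighter probe set fell by 2.14 on the log2 scale (SE 0.11; limma, adjusted p = 7.48e-07), and the dimmer fell by 2.33. Against NFKB1 siRNA the brighter probe set was lower by 1.97 (SE 0.11), so the decrease does not rest on the control arrays.

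**Figure D1:**
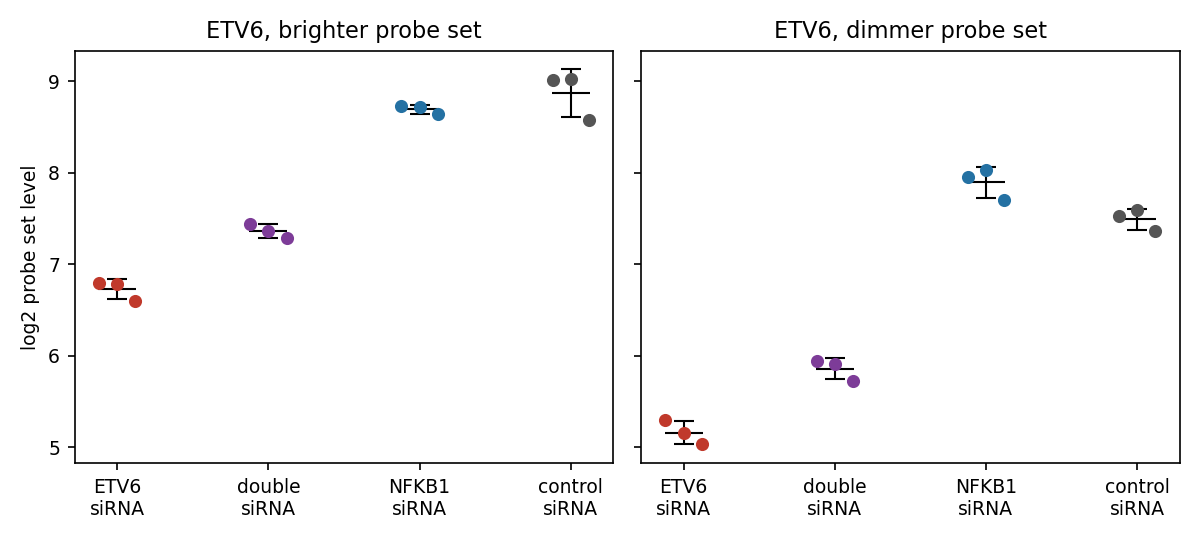
log2 level of the 2 ETV6 probe sets on each array (points) by siRNA, with the mean and SD of 3 arrays as bars. With ETV6 siRNA the brighter probe set read 6.60 to 6.80, below the 8.58 to 9.02 of control siRNA, and the dimmer 5.03 to 5.29, below 7.36 to 7.59.

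Across all genes the knock-down was followed by many small changes and few large ones. An unadjusted p under 0.05 was reached by 1807 of 7760 genes (23.3%). With limma and an adjusted p under 0.05, 827 genes passed (10.7%): 340 were higher (4.38%) and 487 lower (6.28%). The median size was 0.29 among the genes that rose and -0.35 among those that fell, while the median over all tested genes was 0.00. Larger changes lay mostly on the lower side, where 92 genes passed 1.5-fold and 17, ETV6 included, passed 2-fold; of the genes that rose 10 passed 1.5-fold and 1 passed 2-fold. The 3 ETV6 siRNA arrays lay all above or all below the 3 control arrays for 1902 genes (24.5%), 917 above (11.8%) and 985 below (12.7%), and 824 of the 827 called genes were among them. Fitted to the 6 arrays alone, with their own spread, 187 genes passed (2.41%), 66 higher (0.851%) and 121 lower (1.56%), and 185 of these were among the 827 (2.38%). Without control replicate 3 the count over 12 arrays was 959, without ETV6 siRNA replicate 1 it was 436, without ETV6 siRNA replicate 3 it was 469, and without the double siRNA arrays 505. With 3 arrays in each group the smallest p of an exact permutation test is 0.1, so single genes were not tested that way.

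**Figure D2:**
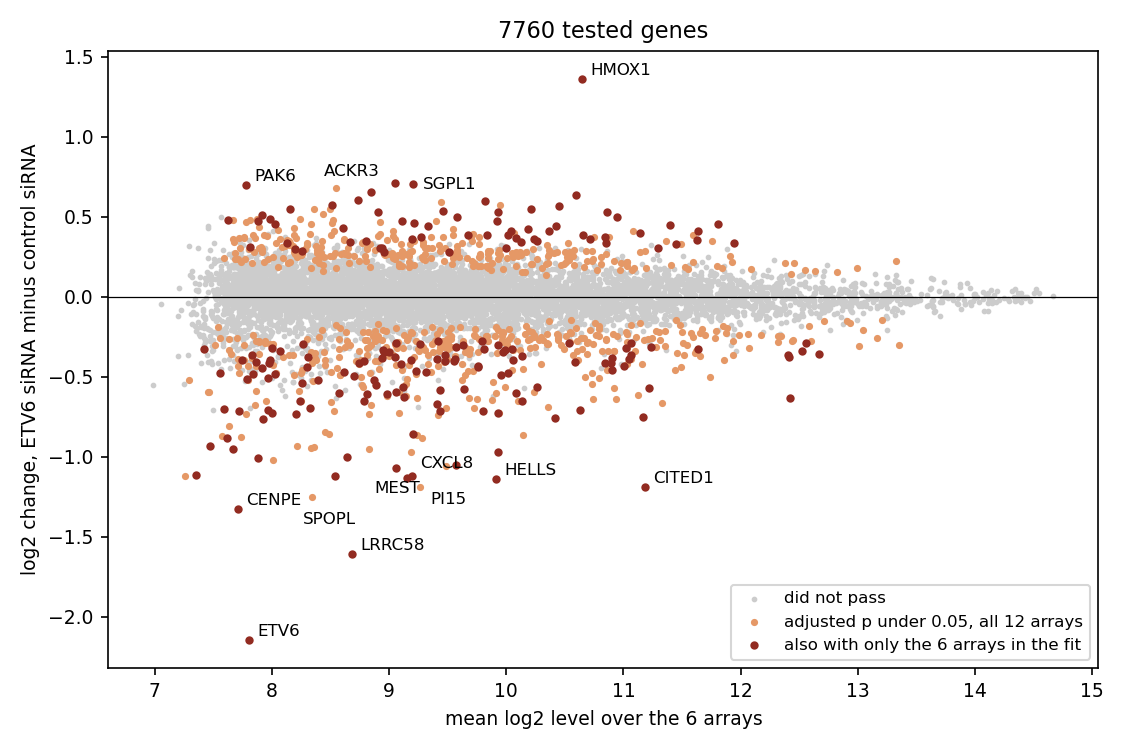
Change with ETV6 siRNA (log2, ETV6 siRNA minus control siRNA, vertical axis) against the mean log2 level over the 6 arrays (horizontal axis) for 7760 genes. HMOX1 (1.36) is the gene farthest above 0 and ETV6 (-2.14) the farthest below, and dark points are the genes that passed in both fits.

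Genes with over 1 probe set allowed a check within the array. All probe sets pointed the same way for 141 of 158 such genes that rose (89.2%) and for 222 of 271 that fell (81.9%), against 2503 of 3886 among all tested genes (64.4%). The share is a description, since the chosen probe set had already passed the test.

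Among the genes that rose, HMOX1 stood alone in size. HMOX1 encodes heme oxygenase 1, which breaks heme down to biliverdin, iron and carbon monoxide and is a classic marker of oxidative stress. Its levels were 11.39, 11.29 and 11.29 with ETV6 siRNA and 10.01, 9.99 and 9.90 with control siRNA. The groups were separated by over a whole log2 unit, and the rise was 1.36 (SE 0.05; limma, adjusted p = 1.33e-07; 0.000749 in the 6 arrays alone). HMOX1 was nearly as high with NFKB1 siRNA, at 11.11 ± 0.02 (SD, n = 3), and the ETV6 siRNA arrays exceeded the NFKB1 siRNA arrays by 0.22 (limma, adjusted p = 0.00927). Against control siRNA the NFKB1 siRNA arrays had themselves risen by 1.15 (limma, adjusted p = 4.58e-07), in a comparison that called 3148 genes (40.6%), 1200 higher (15.5%) and 1948 lower (25.1%).

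Several of the other genes that rose encode signalling and membrane proteins. SGPL1, the lyase that irreversibly degrades sphingosine-1-phosphate, had levels of 9.60, 9.49 and 9.57 with ETV6 siRNA and 8.98, 8.83 and 8.75 with control siRNA. The groups did not overlap, the rise was 0.70 (SE 0.07; limma, adjusted p = 0.000342), and its other probe set gave 0.59. SGPL1 was higher than with NFKB1 siRNA too, by 0.97. PAK6, a p21-activated kinase, had levels of 8.27, 8.06 and 8.05 with ETV6 siRNA and 7.42, 7.40 and 7.46 with control siRNA. It rose by 0.70 (SE 0.07; limma, adjusted p = 0.000189) and exceeded the NFKB1 siRNA arrays by 0.53. SYNPO, which encodes the actin-binding protein synaptopodin, was at 8.89, 8.80 and 8.72 with ETV6 siRNA and at 8.22, 8.21 and 8.26 with control siRNA. Its rise of 0.57 (SE 0.09) had an adjusted p of 0.00222 in limma, and no control array reached the lowest ETV6 siRNA array. APCDD1, a membrane inhibitor of Wnt signalling, rose by 0.55 (SE 0.08), with 8.32 to 8.52 in ETV6 siRNA arrays and 7.75 to 7.98 in control arrays.

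Secreted and receptor proteins of inflammation moved in both directions. ACKR3, an atypical receptor that removes the chemokine CXCL12 from the surroundings of the cell, had levels of 9.58, 9.35 and 9.30 with ETV6 siRNA and 8.76, 8.76 and 8.56 with control siRNA. It rose by 0.71 (SE 0.11; limma, adjusted p = 0.00306). CCL2, which attracts monocytes, had levels of 9.23, 9.07 and 9.22 with ETV6 siRNA and 8.72, 8.47 and 8.37 with control siRNA. It rose by 0.65 (SE 0.10; limma, adjusted p = 0.00213). Both sets of arrays were separated for either gene. CXCL8, which attracts neutrophils and is better known as interleukin 8, went the other way, with 8.49, 8.76 and 8.52 with ETV6 siRNA and 9.83, 9.72 and 9.62 with control siRNA. The highest ETV6 siRNA array was well below the lowest control array, and CXCL8 fell by 1.13 (SE 0.16; limma, adjusted p = 0.00143). Its other probe set fell by 0.88. Of 34 chemokine, cytokine and receptor genes listed 19 had a probe set and 12 passed the filter. Of these 12, 3 rose (ACKR3, CCL2 and CSF1, the macrophage growth factor, at 0.40) and 2 fell (CXCL8 and the oncostatin M receptor OSMR), with a median of 0.00. The shares over all tested genes were 4.38% higher and 6.28% lower. IL6 was at 7.56 to 7.68 with ETV6 siRNA and 7.30 to 7.59 with control siRNA and did not pass.

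The remaining genes among the 14 that rose most were of varied function. CHI3L1, a secreted chitinase-like glycoprotein and marker of mesenchymal glioma, had levels of 9.07, 8.83 and 8.75 with ETV6 siRNA and 8.42, 8.27 and 7.91 with control siRNA. It rose by 0.68 (SE 0.13; limma, adjusted p = 0.00826), but had an adjusted p of 0.0601 in the 6 arrays alone. H2BC12, a histone H2B gene, was at 10.86 to 10.94 with ETV6 siRNA and 10.11 to 10.40 with control siRNA and rose by 0.63 (SE 0.07). GALNT17, of the family of enzymes that begin mucin-type O-glycosylation, was at 8.97 to 9.09 with ETV6 siRNA and 8.32 to 8.56 with control siRNA. It rose by 0.60 (SE 0.06), and it was the 1 gene of these 14 for which ETV6 and NFKB1 siRNA were not called different (0.13; limma, adjusted p = 0.128). SELENOP, a carrier of selenium, rose by 0.59 (SE 0.12) and TOX, a high mobility group box protein, by 0.56 (SE 0.07), each with no overlap between ETV6 siRNA and control arrays. SELENOP did not pass in the 6 arrays alone (limma, adjusted p = 0.0808). The other two were less stable. CITED2, a transcriptional co-regulator that binds CBP and p300, was at 10.19 to 10.28 with ETV6 siRNA and 9.28 to 9.88 with control siRNA, control replicate 3 being the lowest. Its rise was 0.57, or 0.38 without control replicate 3, and the call was lost without any 1 of the ETV6 siRNA replicates (limma, adjusted p 0.0777 to 0.0893). RARRES2, which encodes the chemoattractant chemerin, rose by 0.55 and lost its call without control replicate 2 (limma, adjusted p = 0.0601) or ETV6 siRNA replicate 1 (0.0786). Of these 14 genes 10 also passed in the 6 arrays alone, where 0.851% of all tested genes were called higher. Against NFKB1 siRNA 13 of the 14 were higher, beside 21.8% of all tested genes. The 14 were chosen on the same ETV6 siRNA arrays, so neither count is independent support.

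Among the genes that fell, CITED1 and MEST were lower with ETV6 siRNA than with control siRNA and also lower than with NFKB1 siRNA. CITED1, a relative of CITED2 that binds CBP and p300 and acts in melanocytes and the developing kidney, had levels of 10.61, 10.55 and 10.61 with ETV6 siRNA and 11.78, 11.86 and 11.70 with control siRNA. The groups were over a log2 unit apart, the decrease was -1.19 (SE 0.05; limma, adjusted p = 4.39e-07), and the difference from NFKB1 siRNA was -1.57. MEST, an imprinted gene of the hydrolase fold family expressed from the paternal copy, had levels of 8.52, 8.62 and 8.42 with ETV6 siRNA and 9.77, 9.63 and 9.37 with control siRNA. MEST fell by 1.07 (SE 0.09; limma, adjusted p = 0.000115), with a difference of -1.08 from NFKB1 siRNA. Neither call was lost when any 1 array was left out. EGR1, an immediate early transcription factor that carried reports of repression by ETV6 in the list used here, was at 7.64 ± 0.19 with ETV6 siRNA and at 8.36 ± 0.17 with control siRNA (SD, n = 3 each), with no overlap. It fell by 0.73 (SE 0.13; limma, adjusted p = 0.00452), its other probe set by 0.48, and it was lower than with NFKB1 siRNA by 0.89. KLHL7, a substrate adaptor of cullin 3 ubiquitin ligases, was at 9.12, 9.07 and 9.04 with ETV6 siRNA and at 9.79, 9.69 and 9.89 with control siRNA. It fell by 0.72 (SE 0.06; limma, adjusted p = 0.000148), although its other probe sets ran from -0.60 to 0.30.

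Most of the other large decreases were not called different between ETV6 siRNA and NFKB1 siRNA. LRRC58, a leucine-rich repeat protein, had levels of 7.86, 8.11 and 7.66 with ETV6 siRNA and 9.29, 9.22 and 9.95 with control siRNA. CENPE, the kinesin that carries chromosomes along microtubules from the kinetochore, had levels of 7.21, 7.28 and 6.65 with ETV6 siRNA and 8.35, 8.12 and 8.64 with control siRNA. For both genes control replicate 3 was the highest of the arrays and the groups did not overlap. LRRC58 fell by 1.61 (SE 0.17; limma, adjusted p = 0.000342) and CENPE by 1.33 (SE 0.17; limma, adjusted p = 0.000834). Neither was called different from NFKB1 siRNA, at 0.13 and 0.14. The ETV6 siRNA arrays of CENPE lay below the filter level of 7.54, which applied to the mean over 12 arrays. CENPE had means of 6.91 with NFKB1 siRNA and 8.28 with double siRNA. HELLS, a SNF2-type remodelling ATPase needed for DNA methylation, had levels of 9.37, 9.59 and 9.08 with ETV6 siRNA and 10.50, 10.54 and 10.42 with control siRNA. HELLS fell by 1.14 (SE 0.13) and was even lower with NFKB1 siRNA, the ETV6 siRNA arrays being 0.51 above them. PANX1, a channel that releases ATP, was at 7.95, 8.08 and 7.90 with ETV6 siRNA and at 8.93, 9.02 and 9.33 with control siRNA. PANX1 fell by 1.12 (SE 0.10; limma, adjusted p = 0.000115) and differed from NFKB1 siRNA by -0.05, which did not pass (limma, adjusted p = 0.728); another of its probe sets gave -0.10 against control siRNA. PHIP, a substrate receptor of cullin 4 ligases, fell by 1.12 (SE 0.13), with 8.45 to 8.84 in ETV6 siRNA arrays and 9.55 to 10.06 in control arrays. UGT8, which makes galactosylceramide for myelin, fell by 1.12 (SE 0.14), with a mean of 6.80 ± 0.30 in ETV6 siRNA arrays and 7.91 ± 0.22 in control arrays (SD, n = 3 each). It was lower than with NFKB1 siRNA by 0.51 (limma, adjusted p = 0.0172). UGT8 had means of 7.31 with NFKB1 siRNA and 8.19 with double siRNA. Its ETV6 siRNA arrays lay below the filter level of 7.54, which applied to the mean over 12 arrays.

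A further 4 of the 14 largest decreases leaned on control replicate 3. SPOPL, another cullin 3 adaptor, was at 7.67, 7.94 and 7.53 with ETV6 siRNA and at 8.67, 8.59 and 9.63 with control siRNA, and its decrease was -1.25 with that array and -0.92 without it. PANK3, a pantothenate kinase of coenzyme A synthesis, was at 8.92, 9.20 and 8.75 with ETV6 siRNA and at 9.72, 9.73 and 10.59 with control siRNA, giving -1.06 with control replicate 3 and -0.77 without it. DMXL1, which takes part in assembly of the vacuolar proton pump, gave -1.12 with control replicate 3 and -0.74 without it. DMXL1 was at 6.79, 6.86 and 6.43 with ETV6 siRNA and at 7.49, 7.38 and 8.57 with control siRNA. Of these only control replicate 3 lay above the filter level of 7.54, which applied to the mean over 12 arrays. Its mean was 6.88 with NFKB1 siRNA and 8.88 with double siRNA. The groups did not overlap for SPOPL, PANK3 or DMXL1. Control replicate 3 was the highest of the 6 arrays for each, and none passed in the 6 arrays alone. PI15, a secreted protein of the CAP family, was at 8.58, 9.05 and 8.38 with ETV6 siRNA and at 9.53, 9.30 and 10.75 with control siRNA. Its decrease of -1.19 shrank to -0.75 without control replicate 3, and its other probe set gave 0.13. PI15 and DMXL1 lost their calls without ETV6 siRNA replicate 1 (limma, adjusted p = 0.101 and 0.0591) or replicate 3 (0.114 and 0.0851). Of the 14 largest decreases 10 passed in the 6 arrays alone, where 1.56% of all tested genes were called lower. Against NFKB1 siRNA 5 of the 14 were lower, 1 was higher and 8 were not called different. Over all tested genes 13.1% were lower and 21.8% higher in that comparison. The 14 were chosen on the same ETV6 siRNA arrays, so these counts are not independent support.

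**Figure D3:**
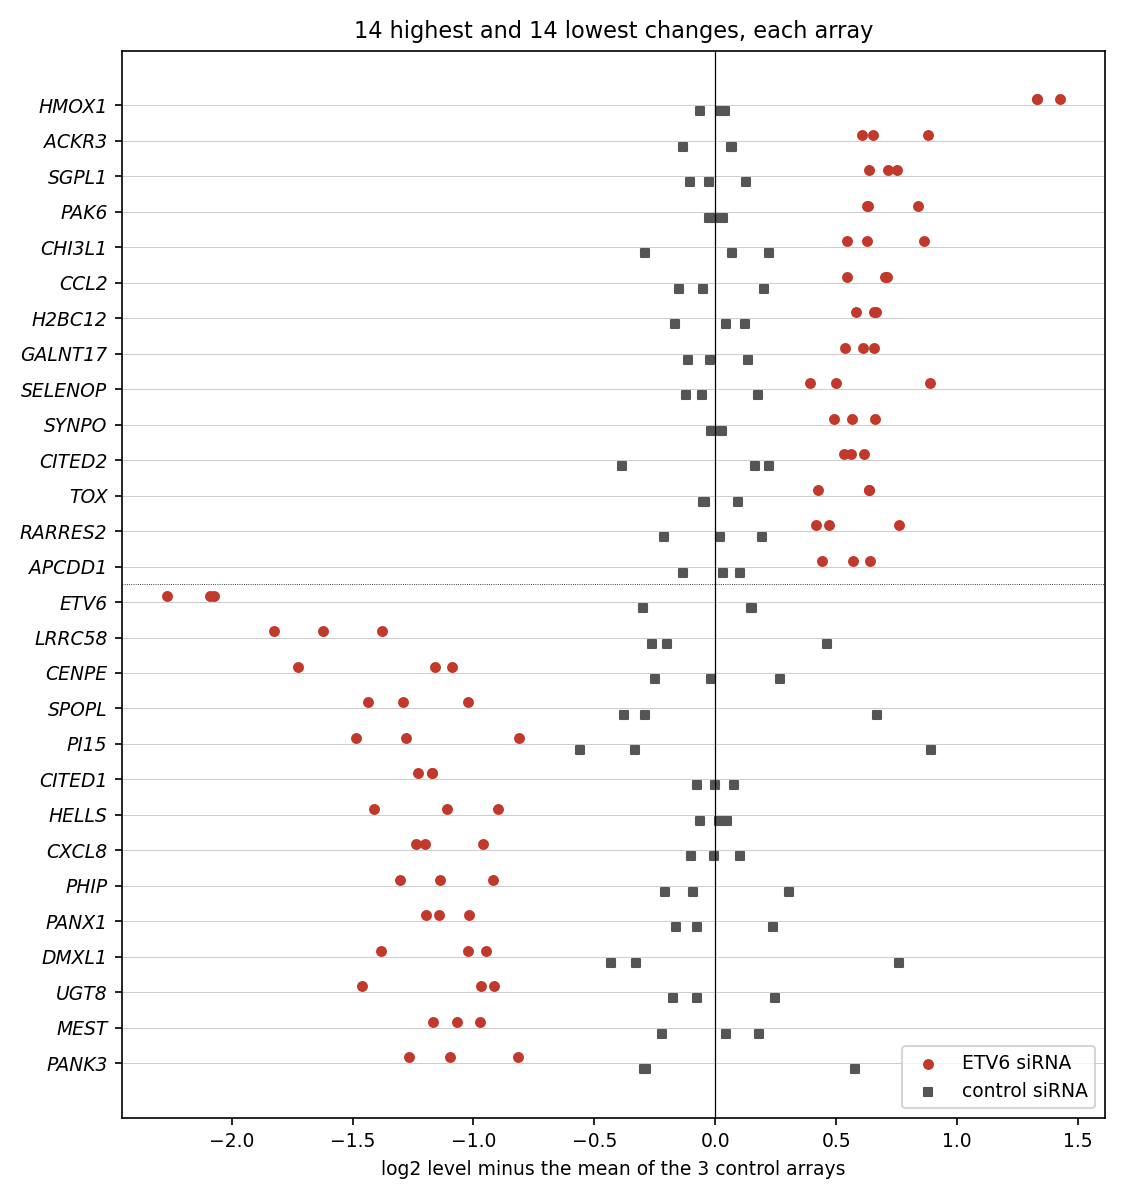
log2 level on each array minus the mean of the 3 control arrays (horizontal axis) for the 14 genes that rose most and the 14 that fell most, ETV6 siRNA as red circles and control siRNA as grey squares. The red and grey points of a gene do not overlap, by the rule that chose the genes, and the grey points of PI15, DMXL1 and SPOPL spread widest, with 1 control array far to the right.

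NFKB1 siRNA arrays served as a further reference that had also received an active siRNA. Against them 2709 of 7760 genes differed with ETV6 siRNA (34.9%), 1695 higher (21.8%) and 1014 lower (13.1%), and 1665 differed without ETV6 siRNA replicate 2. The split depends on scaling: 62.6% of the calls were on the higher side as deposited, 37.6% after shifting every array to the same median and 45.0% after quantile normalization. Of the 340 genes higher than control 151 were also higher than NFKB1 siRNA, 27 were lower and 162 were not called different. Of the 487 genes lower than control 138 were also lower than NFKB1 siRNA, 151 were higher and 198 were not called different. The ETV6 siRNA arrays enter both differences, so these counts are not independent support. The 349 genes that fell but were not lower than with NFKB1 siRNA had a median change of -0.37, and NFKB1 siRNA minus control had a median of -0.61 for them. For 79.9% of these 349 control replicate 3 lay above the mean of the other controls, against 44.8% of all tested genes. The -0.61 and the 79.9% are set in part by the choice of these genes, which favours low NFKB1 siRNA arrays and high control arrays. The transcribed regions of the 349 genes had a median span of 64.4 kb, against 30.9 kb for all tested genes. The 138 genes lower than both references had a median change of -0.30 and a median span of 26.2 kb. For these 138 NFKB1 siRNA minus control had a median of 0.05, and control replicate 3 lay above the other controls for 41.3%. The part of control replicate 3 and of gene length in these changes was not tested.

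**Figure D4:**
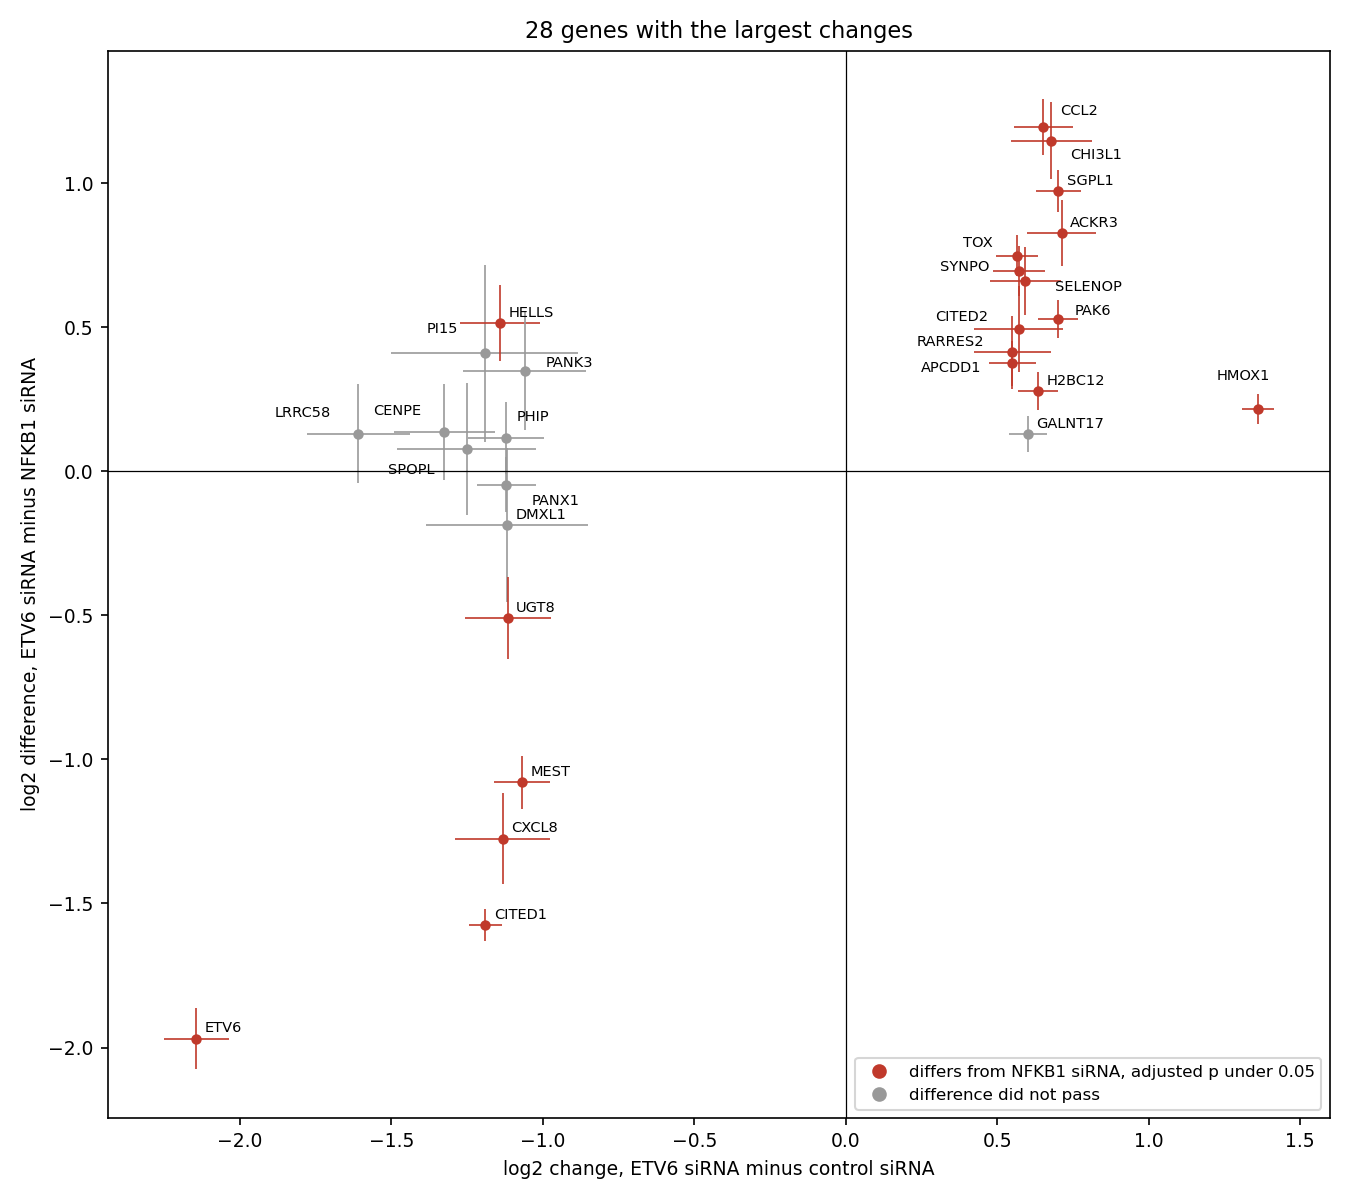
Difference of ETV6 siRNA from NFKB1 siRNA (vertical axis) against its difference from control siRNA (horizontal axis), both log2 with SE bars, for the 14 genes that rose most and the 14 that fell most. The 2 axes share the ETV6 siRNA arrays; CITED1, CXCL8, MEST, UGT8 and ETV6 lie below 0 on both, and 8 of the 14 genes that fell are grey, not called different from NFKB1 siRNA.

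Double siRNA against NFKB1 siRNA gave a measure of adding ETV6 siRNA that shared no array with the main comparison. Each siRNA was at 50 nM, so cells given both may also have received more siRNA in total, and the part of this was not tested. It called 6911 of 7760 genes (89.1%), 2923 higher (37.7%) and 3988 lower (51.4%), so a call in it says little about a single gene. The double siRNA arrays also differed in their control probes: the mean of the poly-A spike-ins was 7.97 to 8.05, against 8.51 to 8.88 with NFKB1 siRNA, and the difference between the 3' and 5' probe sets of beta-actin was 2.05 to 2.16, against 1.52 to 1.65. Their part in these differences was not tested. In this comparison ETV6 was at -1.33 (SE 0.11), CITED1 at -1.31 (SE 0.05), MEST at -1.75 (SE 0.09), CXCL8 at -1.14 (SE 0.16) and KLHL7 at -0.65 (SE 0.06). EGR1 was lower as well, at 7.67, 7.49 and 7.39 with double siRNA and 8.63, 8.65 and 8.29 with NFKB1 siRNA (limma, adjusted p = 1.17e-05). Those genes lay lower with ETV6 siRNA in both comparisons on the probe sets used. For KLHL7 this did not hold on another probe set, which was at 9.64, 9.49 and 9.66 with double siRNA and 7.79, 7.62 and 7.77 with NFKB1 siRNA. CITED1 had levels of 10.80, 10.91 and 10.85 with double siRNA and 12.17, 12.23 and 12.11 with NFKB1 siRNA. MEST had levels of 7.79, 7.91 and 7.85 with double siRNA and 9.63, 9.67 and 9.51 with NFKB1 siRNA. The arrays of the 2 groups did not overlap for either gene. Genes that fell with ETV6 siRNA and were not called different from NFKB1 siRNA lay higher here, LRRC58 at 1.93 (SE 0.17), CENPE at 1.37 (SE 0.17) and PANX1 at 1.47 (SE 0.10). HMOX1 was at -0.86 (SE 0.05), with 10.32, 10.27 and 10.17 with double siRNA and 11.13, 11.11 and 11.10 with NFKB1 siRNA. SGPL1 did not pass (-0.15; limma, adjusted p = 0.0664). The effect of ETV6 siRNA on top of NFKB1 siRNA differed from its effect alone for 6698 genes (86.3%), 2834 higher (36.5%) and 3864 lower (49.8%).

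Because ETS proteins bind around GGAA, the promoters of 6 genes are shown, 5 that were lower in both of these comparisons on the probe sets used and SGPL1, which rose against control. They were chosen after the values were seen. Each is the 250 bases before 1 transcript start of the gene in RefSeq (GRCh38.p14), 5' to 3' on the strand of the gene. Other starts, where a gene has them, were not examined. Each ETS core, GGAA or its reverse complement TTCC, is in capitals.
CITED1 (chrX:72307158-72307407, minus strand): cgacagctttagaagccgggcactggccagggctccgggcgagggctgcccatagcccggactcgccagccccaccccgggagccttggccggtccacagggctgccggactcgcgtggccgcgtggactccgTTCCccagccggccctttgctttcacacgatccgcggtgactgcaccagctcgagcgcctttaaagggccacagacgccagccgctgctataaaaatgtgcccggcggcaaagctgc
CXCL8 (chr4:73740319-73740568, plus strand): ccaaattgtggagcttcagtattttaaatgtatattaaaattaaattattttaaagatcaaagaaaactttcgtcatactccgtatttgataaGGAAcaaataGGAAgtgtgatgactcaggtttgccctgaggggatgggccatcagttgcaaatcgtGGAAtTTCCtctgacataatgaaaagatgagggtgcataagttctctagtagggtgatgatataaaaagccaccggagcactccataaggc
MEST (chr7:130485925-130486174, plus strand): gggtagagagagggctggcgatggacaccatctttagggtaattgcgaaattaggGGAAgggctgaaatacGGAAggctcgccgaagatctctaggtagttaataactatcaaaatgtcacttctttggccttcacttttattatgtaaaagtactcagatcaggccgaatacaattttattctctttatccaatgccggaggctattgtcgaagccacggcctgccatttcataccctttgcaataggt
EGR1 (chr5:138465229-138465478, plus strand): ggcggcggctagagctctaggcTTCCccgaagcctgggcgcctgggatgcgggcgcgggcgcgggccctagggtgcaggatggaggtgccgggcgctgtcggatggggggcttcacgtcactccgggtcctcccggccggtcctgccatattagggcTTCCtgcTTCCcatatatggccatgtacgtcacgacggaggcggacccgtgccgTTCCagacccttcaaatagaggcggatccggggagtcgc
KLHL7 (chr7:23105535-23105784, plus strand): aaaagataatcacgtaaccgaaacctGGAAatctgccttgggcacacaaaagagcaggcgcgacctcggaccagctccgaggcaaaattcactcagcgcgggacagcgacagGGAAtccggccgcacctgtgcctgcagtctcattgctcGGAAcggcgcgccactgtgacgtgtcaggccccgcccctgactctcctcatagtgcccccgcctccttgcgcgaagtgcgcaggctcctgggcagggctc
SGPL1 (chr10:70815698-70815947, plus strand): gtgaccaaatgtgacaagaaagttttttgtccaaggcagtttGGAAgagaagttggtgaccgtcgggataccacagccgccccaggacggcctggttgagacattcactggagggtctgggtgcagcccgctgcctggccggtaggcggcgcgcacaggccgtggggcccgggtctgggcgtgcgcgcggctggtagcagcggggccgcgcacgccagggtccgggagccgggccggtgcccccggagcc
CITED1 and SGPL1 held 1 core each, MEST 2, KLHL7 3, and CXCL8 and EGR1 4 each. CXCL8 holds the neighbouring pair GGAA and TTCC in the stretch known as its NF-kB site, so the core letters also occur in sites of other factors. Of these 6 promoters MEST held the longer match CGGAAG, 180 bases before the start.

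Over all genes the cores were too common to set promoters apart. A GGAA or TTCC lay in 89.2% of the promoters of genes that rose, 94.5% of those of genes that fell and 92.9% of those of all tested genes, where the table held a promoter. The longer ETS-type match CGGAAG, or its reverse complement CTTCCG, lay in 47 of 279 promoters of genes that rose (16.8%), in 117 of 422 of genes that fell (27.7%) and in 2054 of 6576 of all tested genes (31.2%). Over all 27305 promoters in the table the share was 16.8%. For the longer match CCGGAAGT, or ACTTCCGG, which contains the shorter one, the shares were 3.58% for genes that rose, 6.40% for genes that fell and 8.36% for all tested genes. Median GC content was 67.6%, 65.4% and 65.6% in the same order. A match of letters is not a bound site, and the window ends 250 bases before the start.

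In the lists of cell division most calls were on the lower side. In bulk RNA fewer cells in a phase and less RNA per cell cannot be told apart. Of 36 tested kinesin and spindle genes 24 fell and 0 rose (30 lower and 0 higher at an unadjusted p under 0.05), with a median of -0.31, where 6.28% of all tested genes fell. Besides CENPE, these included ANLN, a scaffold of the contractile ring, KIF11, the motor that pushes spindle poles apart, and the spindle pole kinase AURKA. ANLN was at 10.72, 11.02 and 10.62 with ETV6 siRNA and 11.50, 11.41 and 11.71 with control siRNA and fell by 0.75 (SE 0.10). KIF11 was at 8.97, 9.31 and 8.93 with ETV6 siRNA and 9.66, 9.66 and 9.91 with control siRNA and fell by 0.67 (SE 0.10). AURKA was at 10.83 to 10.89 with ETV6 siRNA and 11.14 to 11.25 with control siRNA and fell by 0.32 (SE 0.05). No ETV6 siRNA array reached the lowest control array for any of these. In the 6 arrays alone 6 of the 36 passed, all lower, and the count was 15 without ETV6 siRNA replicate 1 and 16 without replicate 3. Of the 24 that fell, 9 were lower than with NFKB1 siRNA, 2 were higher and 13 were not called different. Over all tested genes 13.1% were lower and 21.8% higher than with NFKB1 siRNA.

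Genes of mitotic control and DNA synthesis gave smaller changes, again beside 6.28% of all tested genes that fell and 4.38% that rose. Of 26 mitotic kinase and cyclin genes 9 fell and 1 rose, with a median of -0.17. The 1 that rose was WEE1, the kinase that holds CDK1 inactive before mitosis, at 10.40, 10.49 and 10.37 with ETV6 siRNA and 10.12, 10.09 and 9.97 with control siRNA (0.36, SE 0.05; limma, adjusted p = 0.00185). The groups did not overlap. FBXO5, an inhibitor of the anaphase-promoting complex, fell by 0.47 (SE 0.08), LMNB1, of the nuclear lamina, by 0.37 (SE 0.07) and cyclin A2 (CCNA2) by 0.32 (SE 0.06). In the 6 arrays alone 2 of the 26 passed, and the count was 6 without ETV6 siRNA replicate 3 and 6 without the double siRNA arrays. Of the called genes of this list 6 were lower than with NFKB1 siRNA, 1 was higher and 3 were not called different. Over all tested genes 13.1% were lower and 21.8% higher in that comparison. Of 50 genes of the G1/S step and DNA replication 19 fell and 1 rose, with a median of -0.19. RRM2, a subunit of ribonucleotide reductase, was at 12.43, 12.41 and 12.41 with ETV6 siRNA and 12.70, 12.72 and 12.70 with control siRNA. Its SD was 0.01 in each group, and RRM2 fell by 0.29 (SE 0.04; limma, adjusted p = 0.00125). The replication factors RFC3 and MCM10 fell by 0.58 (SE 0.09) and 0.48 (SE 0.07). RRM1, the large subunit, fell by 0.46, but its other probe set gave 0.13. In the 6 arrays alone 11 of the 50 passed, all lower, and without ETV6 siRNA replicate 3 the count over 12 arrays was 12. Of the called genes of the G1/S list 5 were lower than with NFKB1 siRNA, 3 were higher and 12 were not called different.

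Of 21 genes of the DNA damage checkpoint and repair 9 fell and 0 rose (13 lower and 0 higher at an unadjusted p under 0.05), with a median of -0.36. The share of all tested genes that fell was 6.28%. BRIP1, a helicase that works with BRCA1, was at 7.18, 7.37 and 7.03 with ETV6 siRNA and 7.94, 8.02 and 8.48 with control siRNA. It fell by 0.95 (SE 0.14; limma, adjusted p = 0.00185). The checkpoint kinase CHEK1 was at 8.85, 8.87 and 8.57 with ETV6 siRNA and 9.31, 9.30 and 9.47 with control siRNA and fell by 0.60 (SE 0.09). The groups did not overlap for either gene. FANCL, a ubiquitin ligase of the Fanconi pathway, fell by 0.39 (SE 0.07) and BRCA1 by 0.66 (SE 0.12), though the other probe set of BRCA1 gave -0.02. In the 6 arrays alone 2 of the 21 passed, and without ETV6 siRNA replicate 1 the count was 5. Against NFKB1 siRNA 2 of the 9 were lower, 4 were higher and 3 were not called different. Over all tested genes 13.1% were lower and 21.8% higher in that comparison. NFKB1 siRNA minus control had a median of -0.60 for the 21 genes. Of 41 genes of cohesin, condensin and chromatin remodelling 10 fell and 0 rose, with a median of -0.23, led by HELLS and PHIP. NFKB1 siRNA minus control had a median of -0.60 for these 41. Of the 10 that fell 0 were lower than with NFKB1 siRNA, 4 were higher and 6 were not called different. SMARCA2, a SWI/SNF ATPase, fell by 0.34 (SE 0.07). NCAPG, of condensin, fell by 0.60 (SE 0.13) and was not called without ETV6 siRNA replicate 1 or 3 (limma, adjusted p = 0.0563 and 0.0544).

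**Figure D5:**
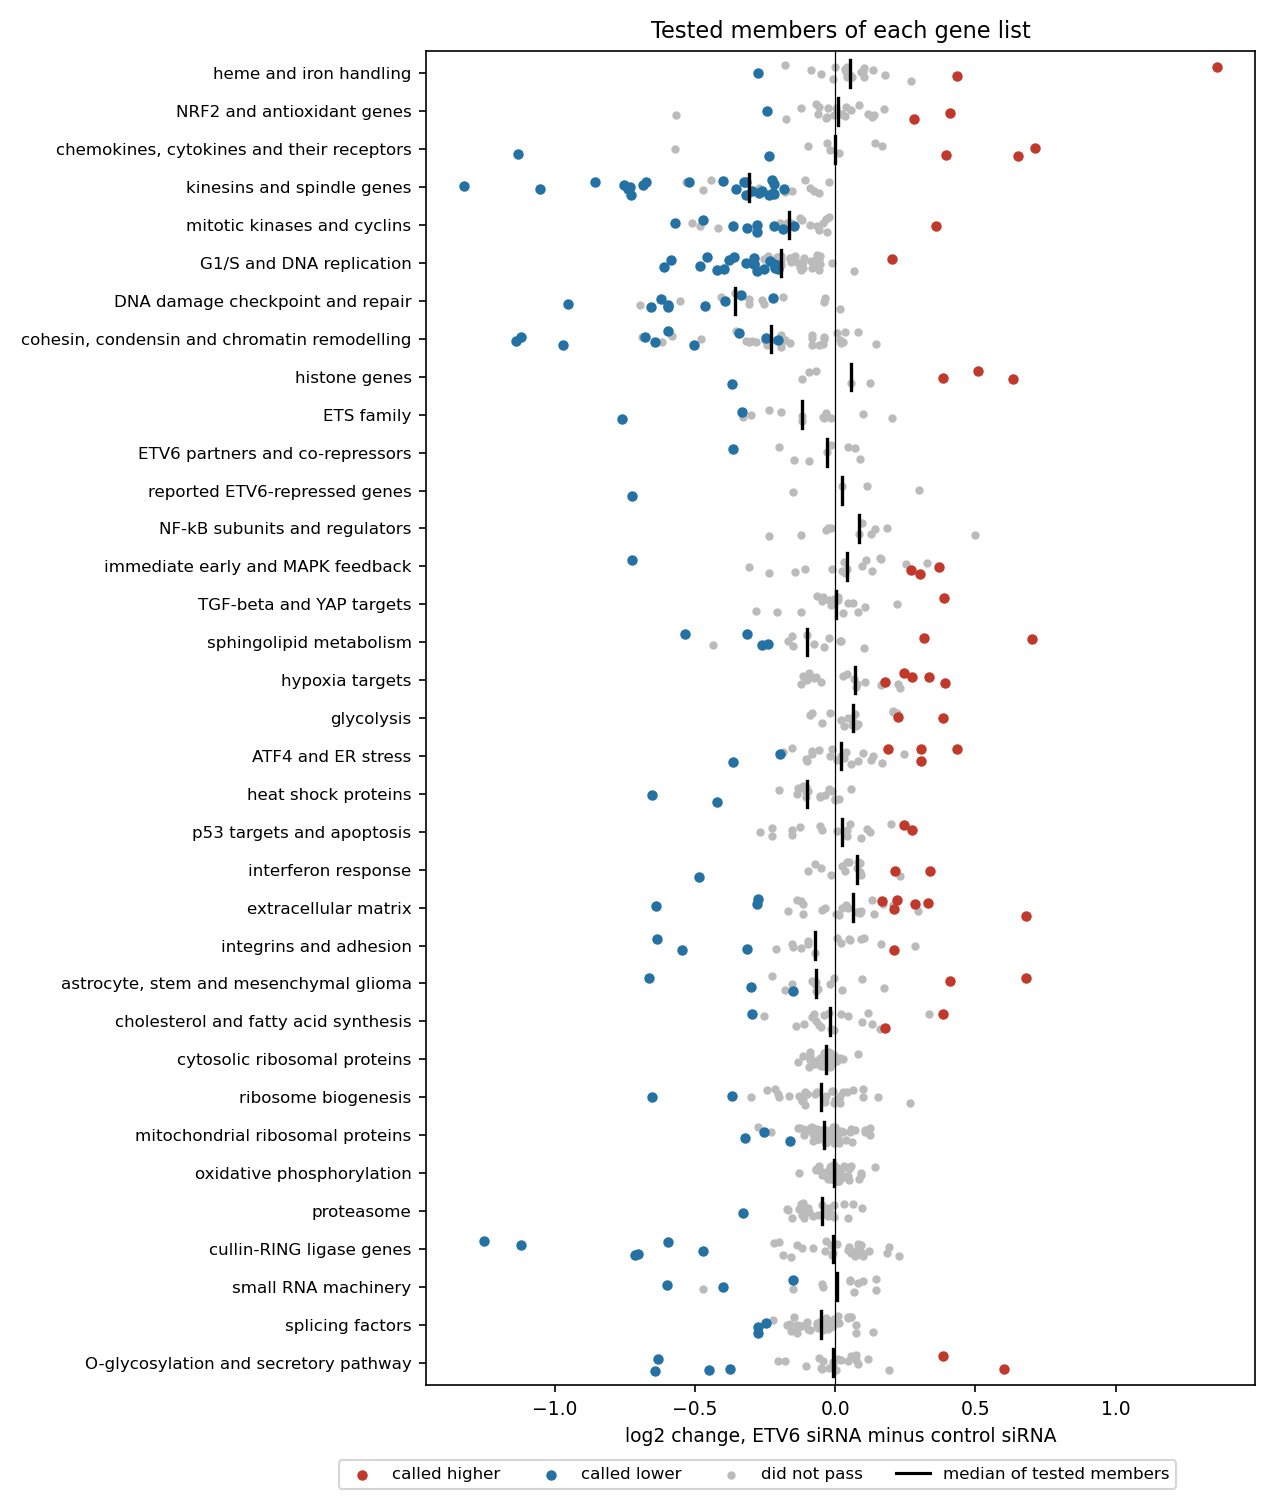
log2 change, ETV6 siRNA minus control siRNA (horizontal axis), of each tested member of the gene lists (rows), red where called higher, blue where called lower and grey where not called, with the median of each list as a black bar. The medians of the lists on cell division lie between -0.36 and -0.17, and those of ribosomal protein and oxidative phosphorylation genes near 0.

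Histone genes moved in both directions. Of 9 tested 3 rose and 1 fell, with a median of 0.06, where 4.38% of all tested genes rose and 6.28% fell. Beside H2BC12, H2BC5 was at 8.21, 8.13 and 8.15 with ETV6 siRNA and 7.67, 7.69 and 7.61 with control siRNA, a rise of 0.51 (SE 0.06; limma, adjusted p = 0.00051) with no overlap. H2AC6 rose by 0.39 (SE 0.08). The 1 that fell was the variant gene H2AZ2, by 0.37, with other probe sets from -0.16 to 0.02, and it was not called without ETV6 siRNA replicate 1 or 3 (limma, adjusted p = 0.109 and 0.0859).

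Members of the ETS family were examined as relatives of the targeted gene. Of 14 tested 2 fell and 0 rose, where 6.28% of all tested genes fell and 4.38% rose. ELF1, an ETS activator of lymphoid and epithelial genes, was at 7.52, 7.71 and 7.40 with ETV6 siRNA and 8.20, 8.17 and 8.54 with control siRNA, a decrease of -0.76 (SE 0.10; limma, adjusted p = 0.00102) with no overlap. ELK3, a ternary complex factor, fell by 0.33 (SE 0.07) and was not called without ETV6 siRNA replicate 3 (limma, adjusted p = 0.0522). ETS1 was at 11.59 to 11.69 with ETV6 siRNA and 11.56 to 11.82 with control siRNA, which overlapped. FLI1, an ETS protein that binds ETV6, differed by -0.01 (SE 0.12) and did not pass. Of 9 partners and co-repressors of ETV6 1 fell, PIAS3, an inhibitor of STAT3, by 0.37, and that call was lost without control replicate 2 or ETV6 siRNA replicate 2 or 3 (limma, adjusted p 0.0582 to 0.0687). Of 5 tested genes listed as reported to be repressed by ETV6, EGR1 fell and 0 rose.

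Of 11 tested genes of NF-kB subunits and regulators 0 passed with limma over 12 arrays, 2 had an unadjusted p under 0.05, and the median was 0.08. The shares over all tested genes were 10.7% and 23.3%. NFKB1 was at 7.85, 7.74 and 7.85 with ETV6 siRNA and 7.22, 7.24 and 7.49 with control siRNA. The arrays did not overlap, the difference was 0.50 (SE 0.18), and the adjusted p was 0.104 in limma over 12 arrays and 0.041 in the 6 arrays alone. The inhibitor gene NFKBIA was at 10.28 to 10.47 with ETV6 siRNA and 10.10 to 10.31 with control siRNA, which overlapped.

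Stress and metabolic lists held calls in both directions, where 10.7% of all tested genes were called (4.38% higher, 6.28% lower). Of 21 genes of heme and iron handling 2 rose and 1 fell, with a median of 0.05, so HMOX1 moved without most of the list. SLC48A1, a heme transporter, rose by 0.43 and lost its call without any 1 ETV6 siRNA replicate (limma, adjusted p 0.061 to 0.0831). SLC11A2, the iron transporter DMT1, was at 9.25 to 9.31 with ETV6 siRNA and 9.54 to 9.57 with control siRNA and fell by 0.27 (SE 0.04), with other probe sets from -0.22 to 0.03. Of 24 genes of the NRF2 antioxidant response, the program that also controls HMOX1, 2 rose and 1 fell, with a median of 0.01. GCLM, of glutathione synthesis, was at 11.75, 11.88 and 11.89 with ETV6 siRNA and 11.54, 11.40 and 11.36 with control siRNA and rose by 0.41 (SE 0.06; limma, adjusted p = 0.00146). SRXN1, which repairs oxidized peroxiredoxins, fell by 0.25 and was not called without control replicate 2 or ETV6 siRNA replicate 1 or 2 (limma, adjusted p 0.0664 to 0.0853). Of 24 hypoxia targets 5 rose and 0 fell, with a median of 0.07, among them PFKFB4, a regulator of glycolysis, by 0.33 (SE 0.06). PFKFB4 was nonetheless 0.68 lower with ETV6 than with NFKB1 siRNA. In the 6 arrays alone 1 of the 24 passed. Without ETV6 siRNA replicate 1 the count was 1, EGLN3, ZNF395 and ADM being among the calls lost (limma, adjusted p = 0.052, 0.0539 and 0.0765), and it was 2 or 3 without replicate 2 or 3 or without control replicate 1 or 2. Of 27 genes of the ATF4 and endoplasmic reticulum stress responses 4 rose and 2 fell: the amino acid transporter gene SLC7A5 rose by 0.31 (SE 0.06) and the mitochondrial folate enzyme gene MTHFD2 fell by 0.37 (SE 0.05). Of 20 heat shock genes 2 fell, DNAJB4 by 0.65 (SE 0.09) and HSPH1 by 0.42, the second not called without ETV6 siRNA replicate 1 or 3 (limma, adjusted p = 0.0631 and 0.0571).

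Sphingolipid genes were listed because of SGPL1. Of 17 tested 2 rose and 4 fell, with a median of -0.10, where 4.38% of all tested genes rose and 6.28% fell. SGPP1, the phosphatase that also removes sphingosine-1-phosphate, was at 7.94, 8.04 and 7.97 with ETV6 siRNA and 8.46, 8.51 and 8.60 with control siRNA. It fell by 0.54 (SE 0.05; limma, adjusted p = 0.000302), with no overlap and -0.65 on its other probe set, opposite to SGPL1. The receptor gene S1PR3 fell by 0.26 (SE 0.05). SPTSSA, a small subunit of serine palmitoyltransferase, fell by 0.32 and was not called without ETV6 siRNA replicate 1 or 3 (limma, adjusted p = 0.0741 and 0.0752).

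Genes of the cell surface and matrix were mixed, where 4.38% of all tested genes were called higher and 6.28% lower. Of 30 extracellular matrix genes 6 rose and 3 fell, with a median of 0.06 and 0 called in the 6 arrays alone. All 9 were higher with ETV6 than with NFKB1 siRNA. In that comparison 21.8% of all tested genes were called higher and 13.1% lower, a split that depended on scaling. NFKB1 siRNA minus control had a median of -0.11 for the 30 genes. The membrane-bound metalloproteinase gene MMP14 rose by 0.28 (SE 0.06) and the shedding protease gene ADAM10 fell by 0.64 (SE 0.13). Fibrillin 1 (FBN1) rose by 0.33 and was not called without ETV6 siRNA replicate 1 (limma, adjusted p = 0.0559). Of 19 integrin and adhesion genes 1 rose and 3 fell. Integrin beta 1 (ITGB1), the shared subunit of many matrix receptors, was at 12.05, 12.23 and 12.03 with ETV6 siRNA and 12.71, 12.70 and 12.80 with control siRNA. ITGB1 fell by 0.63 (SE 0.06; limma, adjusted p = 0.000237), with no overlap, while it was 0.43 higher than with NFKB1 siRNA. Of 18 astrocyte, stem cell and mesenchymal glioma genes 2 rose and 3 fell. The growth factor receptor gene MET fell by 0.66 (SE 0.11), with other probe sets at -0.10, and PDGFRA rose by 0.41 and lost its call without control replicate 2 or ETV6 siRNA replicate 1 or 2 (limma, adjusted p 0.0549 to 0.0559). GFAP, the intermediate filament of astrocytes, was at 13.31, 13.17 and 13.13 with ETV6 siRNA and 13.59, 13.50 and 13.43 with control siRNA. It fell by 0.30 (SE 0.08; limma, adjusted p = 0.0333), and the call was lost when any 1 of 6 arrays was left out: control replicate 1 or 2, ETV6 siRNA replicate 2 or 3, NFKB1 siRNA replicate 2 or double siRNA replicate 1 (adjusted p 0.0509 to 0.127).

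Lists of contractility, secretion and ubiquitin ligases are set beside 4.38% of all tested genes called higher and 6.28% called lower. ACTA2, smooth muscle actin, was the 1 of 18 TGF-beta and YAP targets that passed, at 9.82 to 9.90 with ETV6 siRNA and 9.45 to 9.50 with control siRNA (0.39, SE 0.08), and it was 1.37 higher than with NFKB1 siRNA. Of 26 genes of O-glycosylation and secretion 2 rose and 4 fell. Without ETV6 siRNA replicate 1 or 3 the count was 2. GALNT10 rose beside GALNT17, by 0.38 (SE 0.06), and GALNT1 fell by 0.63, not called without ETV6 siRNA replicate 1 or 3 (limma, adjusted p = 0.0569 and 0.0547). Of 35 cullin-RING ligase genes 6 fell and 0 rose, with a median of -0.01, and 11 were called without control replicate 3. KLHL7, SPOPL, PHIP and FBXO5 are described above, and KLHL42, at 6.98 to 7.33 with ETV6 siRNA and 7.60 to 7.97 with control siRNA, fell by 0.60 (SE 0.10), though another of its probe sets gave -0.09.

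Ribosomal, respiratory, proteasome, splicing and small RNA genes are set beside the same shares, 4.38% of all tested genes called higher and 6.28% called lower. Of 43 cytosolic ribosomal protein genes 0 passed with limma, in either fit, and 1 had an unadjusted p under 0.05, with a median of -0.03. Of 49 oxidative phosphorylation genes 0 passed in either fit and 1 had an unadjusted p under 0.05. Of 56 mitochondrial ribosomal protein genes 3 fell, and of 29 proteasome genes 1 fell, PSMB5, a catalytic subunit, at 11.42 to 11.51 with ETV6 siRNA and 11.77 to 11.84 with control siRNA (-0.33, SE 0.04). Of 32 ribosome biogenesis genes 2 fell, BRIX1 by 0.37 (SE 0.06) and DDX21 by 0.65 (SE 0.12). Of 43 splicing factor genes 3 fell, and of 14 small RNA machinery genes 3 fell. TNRC6B, a partner of Argonaute proteins in silencing, fell by 0.60. Without ETV6 siRNA replicate 3 none of the 3 small RNA genes was called: TNRC6B had an adjusted p of 0.0532, TNRC6A of 0.115 and DROSHA of 0.168 in limma.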

How the data were processed

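Expression was measured in 12 arrays of U251 cells, 3 per group, grouped by the siRNA in the labels. The values are log2 probe set levels that the authors deposited; their background correction, summarization and normalization are not stated in these sources. The table held 19520 probe sets, of which 17313 named 1 gene in the platform annotation, 857 several and 1293 none, beside 57 control probe sets. Entrez identifiers of 17307 matched RefSeq (GRCh38.p14), used for names and promoters. Each gene was represented by its probe set of highest mean (10346 genes, 4482 with over 1 probe set). A filter removed genes whose mean over the 12 arrays was below the 25th percentile (log2 7.54), ETV6 and NFKB1 excepted, leaving 7760. A tested gene can therefore lie below that level in a group. BRIP1, CENPE, DMXL1, UGT8 and KLHL42, among others, did so with ETV6 siRNA, and PAK6 did so with control siRNA. No array pair held identical values (0 pairs), and 0 columns were unused.

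The 12 arrays entered one linear model with a coefficient for each group (R 4.3.3; limma 3.58.1, lmFit and eBayes, with residual degrees of freedom of 8 and prior ones of 3.41), two-sided, with Benjamini-Hochberg adjustment over all tested genes and calls at 0.05. The fit was tested on simulated data. Precision is limited by the small number of arrays.

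Genes named are ETV6, the 14 highest and 14 lowest called changes whose arrays did not overlap (names without annotation left out), and up to 4 called members with the smallest adjusted p of each of 37 lists, 1 of which is not reported here. OSMR, ETS1, FLI1, IL6, NFKB1, NFKBIA and VIM were named beside these after values were seen. Members and lists were chosen with earlier results of these data known, so list counts are descriptions. Alternatives were other scalings, filters, probe set rules, variance models, subsets of groups, a replicate block, and leaving out arrays.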

Additional observations from a re-analysis of the deposited data

Results flagged for a closer look

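The effect of ETV6 siRNA given alone (ETV6 siRNA minus control siRNA) was set against its effect on top of NFKB1 siRNA (double siRNA minus NFKB1 siRNA), as the log2 difference of the second effect minus the first (limma, all 12 arrays). It passed for 6698 of 7760 genes (86.3%), 2834 higher (36.5%) and 3864 lower (49.8%), so passing does not set a gene apart. The 14 genes that rose most and the 14 that fell most were chosen on ETV6 siRNA minus control siRNA, which this difference subtracts. The choice by itself therefore pushes the first set toward lower differences and the second toward higher ones. Of the 14 genes that rose most with ETV6 siRNA alone, 12 rose less, or lay lower, on top of NFKB1 siRNA with a difference that passed. The difference was -2.22 for HMOX1, -1.12 for H2BC12, -1.05 for GALNT17, -0.99 for SYNPO, -0.92 for ACKR3, -0.91 for PAK6, -0.86 for SGPL1, -0.82 for CITED2, -0.79 for RARRES2, -0.54 for APCDD1, -0.35 for CCL2 and -0.34 for TOX. SELENOP went the other way at 1.34. Of the 14 that fell most, 10 lay higher on top of NFKB1 siRNA, with differences of 3.89 for PI15, 3.54 for LRRC58, 3.42 for SPOPL, 3.12 for DMXL1, 3.01 for PANK3, 2.70 for CENPE, 2.69 for PHIP, 2.63 for HELLS, 2.59 for PANX1 and 2.00 for UGT8. ETV6 fell less on top of NFKB1 siRNA (0.81), and MEST fell more (-0.68). CITED1 and CXCL8 fell in both settings, and CHI3L1 rose in both; for these 3 the difference did not pass (limma, adjusted p = 0.152, 0.98 and 0.0824), which does not show that the effects were equal. The double siRNA arrays stood apart in their control probes, and their cells may have received more siRNA in total, as given above. The part of either in the differences was not tested.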

How the results depend on the processing

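Of the 115 named genes that were called 0 changed sign in any alternative that gave 1 value per gene. The setting with every probe set on its own was not part of that count. Other probe sets of some called genes had the opposite sign, such as KLHL7 (0.30), PI15 (0.13) and RRM1 (0.13). Where ETV6 siRNA and control arrays do not overlap, leaving out an array cannot change the sign. ETV6 stayed between -2.29 and -2.07 with any 1 array left out. The count of 827 genes became 2342 with array weights, 187 with only the groups compared and 505 without the double siRNA arrays, and 436 to 959 with 1 array left out. The 2709 genes differing between ETV6 and NFKB1 siRNA became 4285 with every probe set on its own, 4333 with array weights and 1665 to 3654 with 1 array left out (1665 without ETV6 siRNA replicate 2). The 6911 between double and NFKB1 siRNA became 4563 with a filter at the 50th percentile, 11478 with every probe set and 6728 to 6974 with 1 array left out. The 6698 of the difference between the effects became 4418 and 11051 in the same settings and 6516 to 6711 with 1 array left out. Counts of list members were 6 of kinesins, 2 of mitotic kinases, 11 of G1/S and 2 of repair with only the groups compared. They were 38 of G1/S with array weights and 6 of mitotic kinases without the double siRNA arrays, and 15 to 26, 6 to 12, 12 to 22 and 5 to 11, in the order of the lists just named, with 1 array left out. Fewer arrays or more probe sets enter some of these settings by construction; otherwise the cause was not tested. Of the named calls other than ETV6, 63 of 114 were lost with only the groups compared, 38 without ETV6 siRNA replicate 1, 34 without replicate 3 and 2 with array weights. Same-numbered ETV6 and control arrays deviated together with correlations of 0.33, -0.52 and -0.25, and ETV6 siRNA replicate 2 with control replicate 3 at 0.64. Deviations from the mean of 3 arrays are tied to each other, so these values cannot decide whether the numbers pair the samples. With the replicate number as a block 760 genes passed for ETV6 siRNA, 2717 against NFKB1 siRNA, 6906 for double against NFKB1 siRNA and 6682 for the difference between the effects.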

Other observations

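The lists not described above are set beside the 10.7% of all tested genes that were called. Of 21 immediate early and MAPK feedback genes 3 rose and EGR1 fell, with a median of 0.04. DUSP1, a phosphatase that inactivates MAP kinases, was at 11.07, 10.84 and 10.90 with ETV6 siRNA and 10.68, 10.56 and 10.46 with control siRNA. The groups did not overlap, and DUSP1 rose by 0.37 (SE 0.07; limma, adjusted p = 0.00632; 0.0751 in the 6 arrays alone). It was not called different from NFKB1 siRNA (-0.04). MYC rose by 0.30 and the growth factor gene HBEGF by 0.27, and both lost their calls without control replicate 3 (limma, adjusted p = 0.0694 and 0.0863) and without ETV6 siRNA replicate 1 or 3, NFKB1 siRNA replicate 1 or 2, or double siRNA replicate 3, HBEGF also without the other NFKB1 or double siRNA replicates.

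Of 18 glycolysis genes 2 rose, GPI and HK2, and of 18 p53 targets and apoptosis genes 2 rose, TP53I3 and CASP9. Of 19 interferon response genes 2 rose and 1 fell. IFI44 was at 7.90, 8.04 and 7.90 with ETV6 siRNA and 8.30, 8.36 and 8.65 with control siRNA and fell by 0.49 (SE 0.09; limma, adjusted p = 0.00752). IFIT1, which binds foreign RNA, rose by 0.34 and lost its call without any 1 ETV6 siRNA replicate (limma, adjusted p 0.0538 to 0.0603). Of 22 cholesterol and fatty acid synthesis genes 2 rose and 1 fell. SREBF1, a master regulator of lipid synthesis, rose by 0.38 (SE 0.09; limma, adjusted p = 0.0146) and was not called without ETV6 siRNA replicate 1 (0.0672). GPI, HK2 and CASP9 lost their calls without any 1 ETV6 siRNA replicate and without some control replicates, with limma adjusted p-values of up to 0.15, and TP53I3 lost its call without ETV6 siRNA replicate 1 (0.0631). None of GPI, HK2, TP53I3, CASP9, IFI44, IFIT1 and SREBF1 passed in limma on the 6 arrays alone.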
